A study of Mus musculus with 9 samples.

Results

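Pappa, Igf1, Igf2, Igf1r, Igf2r, Igfbp2, Igfbp3, Igfbp4 and Igfbp5, 9 genes of the insulin-like growth factor (IGF) system, were followed in the midbrain of mouse fetuses in which Gpr161 was deleted in the Wnt1-Cre lineage. The 9 genes were taken by symbol from a table with 21356 distinct symbols, and all 9 were among the 14029 genes that passed the filter on low values. Pappa was chosen by its measured difference, being strongly higher in the Gpr161 conditional knockout (cKO) than in the controls, so that difference is given as a description with no test. The other 8 genes, its partners, are ligands, receptors and binding proteins of the same system, though not all of them. They were listed with earlier results of these data known.

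Poly-A RNA was sequenced from midbrain tissue at E13.5, with 3 libraries per genotype and the strain given as C57BL/6. The floxed control was Gpr161 f/f without Cre, the Cre control was Gpr161 f/+;Wnt1-Cre, and the cKO was Gpr161 f/f;Wnt1-Cre, so all 9 libraries carried a floxed allele and the Cre control had also lost a copy of Gpr161 in the Wnt1 lineage. Wnt1-Cre recombines in the dorsal midbrain neuroectoderm and in neural crest, so the dissected tissue also held cells with intact Gpr161, and this Cre line is known to express Wnt1 ectopically, which among the controls only the Cre control shares. The deposited values are log2 expression values, normalized between libraries, with an unknown sequencing depth and with changes at low expression compressed. The samples of a genotype are numbered in their titles with no litter or batch given, so the p-values measure the spread between these samples only.

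Gpr161 itself was at 11.77 ± 0.030, 11.88 ± 0.096 and 11.88 ± 0.12 (log2 value, SD, n = 3) in floxed controls, the Cre control and the libraries labelled cKO. The libraries labelled cKO thus had no less Gpr161 signal, and since the table gives 1 value per gene and not per exon, it does not check the labels, on which every direction below rests. Gli1, a target of Shh signaling, was between 8.55 and 8.71 in the 6 control libraries and between 9.60 and 9.80 in the libraries labelled cKO. Of the 7 listed midbrain markers, En1, En2 and Otx2 were between 10.50 and 12.63 in every library and, like Lmx1b, did not pass. Versus floxed controls, the differences of Pax2 and Pax7 were -0.63 and -0.48 (limma adjusted p = 0.0146 and 0.00595). That of Pax5 was 0.56 (limma adjusted p = 0.00311). Versus Cre controls only Pax5 passed, with 0.39 (limma adjusted p = 0.0473).

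IGF signaling is carried by the secreted ligands Igf1 and Igf2, which activate the receptor tyrosine kinase Igf1r and promote growth and survival of many cells, neural progenitors among them. Igf2r binds Igf2 and takes it to the lysosome, and the Igfbp proteins hold the ligands outside the cell. Pappa is a secreted metalloproteinase that cleaves Igfbp4, and also Igfbp2 and Igfbp5, which frees the bound ligand near the receptor. In the developing brain Igf2 is known as a product of the meninges, the choroid plexus and blood vessels. Igf2 and Igf2r are imprinted genes, in many tissues expressed mainly from opposite parental alleles, which these values per gene cannot show for the midbrain.

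In GRCm38, Pappa lies on chromosome 4 from 65124174 to 65357509, Igf1 on chromosome 10 from 87858265 to 87937042, Igf2 on chromosome 7 from 142650766 to 142666816 and Igf1r on chromosome 7 from 67952827 to 68233668. Igf2r lies on chromosome 17 from 12682406 to 12769664, Igfbp3 on chromosome 11 from 7206086 to 7213923 and Igfbp4 on chromosome 11 from 99041244 to 99054392. Igfbp2 (72824503 to 72852474, forward strand) and Igfbp5 (72857932 to 72874884, reverse strand) are neighbours on chromosome 1 that point toward each other, with 5457 bases between their ends. All 9 are annotated as protein-coding. The antisense genes Igf2os, Igf1os and Airn overlap Igf2, Igf1 and Igf2r on the opposite strand, by whole gene spans, with exons not compared. Since the use of strand in the counting is not stated, reads from any shared exon bases may not be told apart from those of the 3 genes. The miRNA gene Mir483 and the coding model Gm49394 also overlap Igf2 on its own strand.

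Promoters are shown for Igfbp2, Igfbp5 and Igfbp4, the 3 partners in which every cKO library lay above every control library. Of the 9 genes, 8 had promoters in the RefSeq set for GRCm38.p6 (300 bases, 250 before and 50 after a start). Capitals mark a TATA box (TATAAA), a GC box (GGGCGG) or a CCAAT box (CCAAT), searched on both strands and found in 13.6%, 35.7% and 37.4% of all 32851 promoters.
Igfbp2, chr1:72824230-72824529, forward strand: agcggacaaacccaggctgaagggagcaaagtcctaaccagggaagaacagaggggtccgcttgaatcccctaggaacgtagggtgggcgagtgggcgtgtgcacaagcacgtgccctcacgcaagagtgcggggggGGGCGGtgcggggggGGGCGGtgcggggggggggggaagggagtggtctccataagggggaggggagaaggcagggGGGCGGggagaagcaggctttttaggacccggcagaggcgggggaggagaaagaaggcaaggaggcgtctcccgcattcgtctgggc
Igfbp5, chr1:72874816-72875115, reverse strand: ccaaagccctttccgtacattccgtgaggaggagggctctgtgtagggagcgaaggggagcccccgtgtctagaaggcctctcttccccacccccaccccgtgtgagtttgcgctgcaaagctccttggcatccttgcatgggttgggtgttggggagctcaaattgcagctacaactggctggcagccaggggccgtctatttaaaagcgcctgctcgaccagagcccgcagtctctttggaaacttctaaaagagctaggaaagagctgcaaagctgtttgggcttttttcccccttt
Igfbp4, chr11:99040994-99041293, forward strand: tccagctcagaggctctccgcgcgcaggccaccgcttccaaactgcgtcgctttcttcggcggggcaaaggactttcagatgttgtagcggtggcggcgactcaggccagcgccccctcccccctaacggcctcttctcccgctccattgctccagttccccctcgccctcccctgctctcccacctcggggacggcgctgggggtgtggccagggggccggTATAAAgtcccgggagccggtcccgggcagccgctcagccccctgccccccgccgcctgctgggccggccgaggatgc
The first promoter of Igfbp2 held 3 GC boxes, with 67.0% G or C. A second Igfbp2 promoter held none of the motifs. That of Igfbp4 held a TATA box that begins 28 bases before the start, with 71.3% G or C, and that of Igfbp5 held none of these letters, with 56.3% G or C. The consensus of the Gli factors of Shh signaling (GACCACCCA, either strand) was in 0 of the 12 promoters of the 8 genes and in 0.253% of all promoters, which says only that these letters are not in these windows.

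For levels between genes, the linear value (in cpm of the library sum, averaged over all 9 libraries) was divided by the length of the longest coding transcript in kilobases. Igfbp2 (290.0 cpm per kilobase) and Igf2 (163) stood highest, followed by Igfbp4 (57.7) and Igfbp5 (40.5). The receptors Igf1r and Igf2r were both at 10.6, Igfbp3 at 7.02, Igf1 at 2.61 and Pappa at 1.46. By genotype on the same scale, Pappa was at 1.03 in floxed controls, 1.18 in Cre controls and 2.18 in the cKO, and Igf1 was at 2.29, 2.55 and 2.98. With the length of all exons in place of the longest transcript, Igf2r (10.1) came above Igf1r (7.21) over the 9 libraries, and in the cKO Pappa (2.18) and Igf1 (2.12) were nearly level. On this scale the system was made up mostly of transcripts for Igf2, Igfbp2, Igfbp4 and Igfbp5, with the protease and Igf1 far lower. Whether the deposited values were already corrected for length is not stated, in which case the division corrects again. Without it Igf2 (770 cpm), Igfbp2 (379), Igfbp5 (243) and Igfbp4 (221) also stood highest, and Igf1 (18.4), Igfbp3 (17) and Pappa (16.1) lowest.

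Pappa was at 8.33, 8.23 and 8.22 in floxed controls, 8.49, 8.44 and 8.41 in Cre controls and 9.40, 9.40 and 9.27 in the cKO (log2 values). The 3 genotypes did not overlap, and the smallest cKO value stood clear of the largest control value, 8.49 in Cre control replicate 1. The means were 8.26 ± 0.057, 8.45 ± 0.041 and 9.36 ± 0.073 (log2 value, SD, n = 3). The cKO was thus 1.10 above the floxed control and 0.91 above the Cre control on the log2 scale, a 2.14-fold and a 1.88-fold difference, the difference for which the gene was chosen. Over 19 other ways to fit the data these differences ran from 1.08 to 1.17 and from 0.890 to 0.955. Fits that changed only the filter, the trend or the replicate block cannot move a difference of means. The range is thus a description and no test of the difference. In bulk tissue, more cells that make a transcript and more transcript per cell cannot be told apart, here and in all results below. Between the controls, which the choice did not use, Pappa differed by 0.19 on the log2 scale (95% interval 0.06 to 0.31, limma adjusted p = 0.181) and did not pass, though all 3 Cre control libraries lay above the floxed control, as did 10.7% of all genes.

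**Figure D1:**
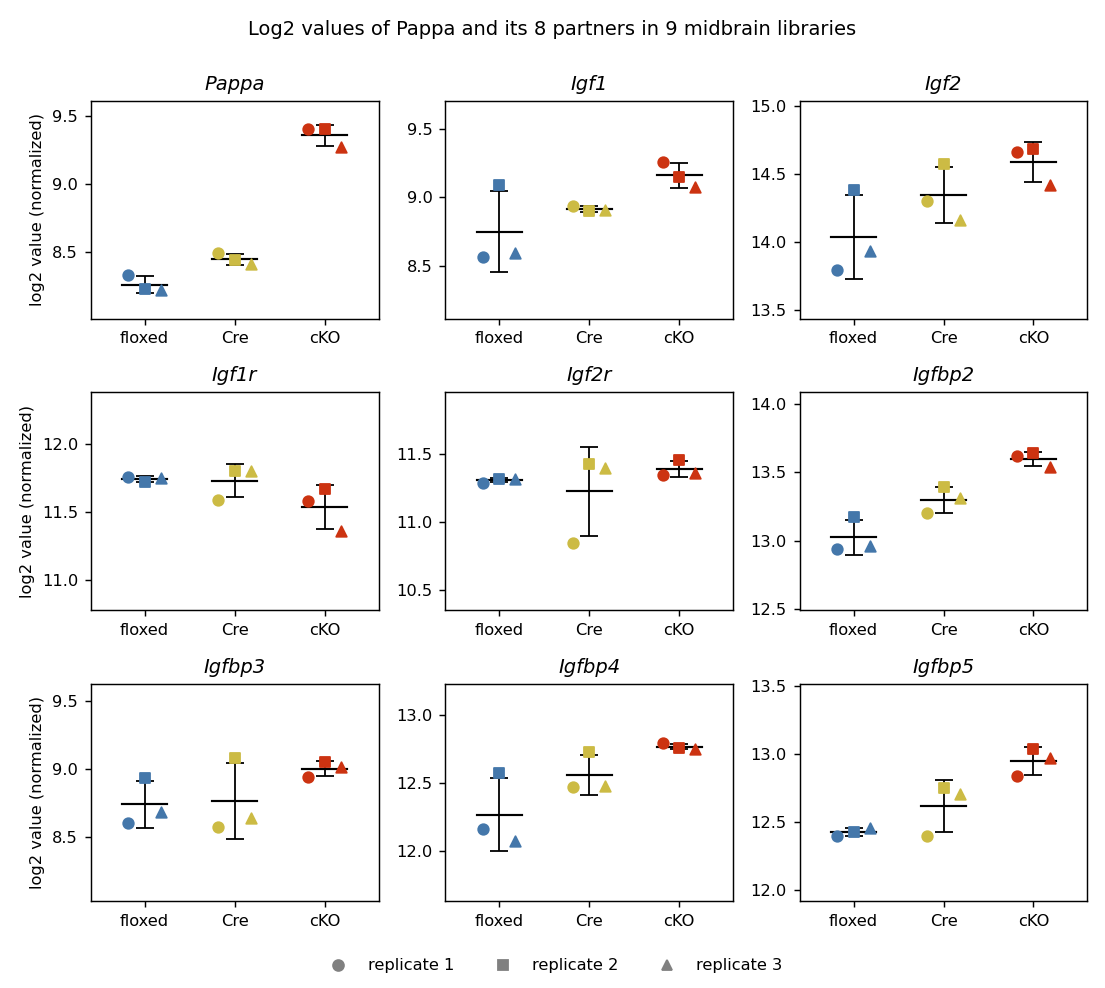
Log2 values (vertical axes, each spanning the same range of 1.6) of the 9 genes in floxed controls, the Cre control and the cKO, with 1 point per library, the mark giving the replicate number, the bar the mean and the whisker the SD of 3 libraries. Pappa, Igfbp2, Igfbp4 and Igfbp5 lie higher in all 3 cKO libraries than in all 6 controls, and floxed control replicate 2 stands above the other floxed controls for Igf1, Igf2, Igfbp3 and Igfbp4.

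Igfbp2, a binding protein of fetal tissue and cerebrospinal fluid with a preference for Igf2, had the smallest adjusted p of the 8 partners. Its log2 values were 12.94, 13.17 and 12.96 in floxed controls, 13.20, 13.39 and 13.31 in Cre controls and 13.62, 13.64 and 13.54 in the cKO. The 3 genotypes did not overlap and lay in the order floxed control, Cre control, cKO. All Cre controls lay above all floxed controls for 10.7% of all genes, and all cKO libraries above all controls for 14.7%. The share of genes with both was not counted. Igfbp2 rose in the cKO by 0.58 versus floxed controls (1.49-fold, standard error 0.0682, limma adjusted p = 5.23e-04) and by 0.30 versus Cre controls (1.23-fold, 95% interval 0.15 to 0.45, limma adjusted p = 0.0278). Versus floxed controls it passed under all 19 alternatives, with adjusted p of at most 0.0159. Versus Cre controls it did not pass without Cre control replicate 3, cKO replicate 1 or cKO replicate 2 (limma adjusted p = 0.0823, 0.105 and 0.0822) or after quantile normalization (0.0544). Between the controls it differed by 0.27 (95% interval 0.12 to 0.42, limma adjusted p = 0.145) and did not pass.

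Igfbp5, its neighbour on chromosome 1, was at 12.40, 12.43 and 12.46 in floxed controls, 12.40, 12.75 and 12.71 in Cre controls and 12.84, 13.04 and 12.97 in the cKO (log2 values). Cre control replicate 1 sat among the floxed controls, while the other Cre controls lay between them and the cKO. Igfbp5 rose in the cKO by 0.52 versus floxed controls (1.43-fold, limma adjusted p = 0.00183) and by 0.33 versus Cre controls (1.25-fold, 95% interval 0.14 to 0.52, limma adjusted p = 0.0427). The second call was narrow: its adjusted p was between 0.0167 and 0.123 over the 19 alternatives, and it was lost in 7 of the 9 fits that left out 1 library, the exceptions being Cre control replicates 1 and 2.

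Igfbp4, the best known substrate of Pappa, was at 12.16, 12.57 and 12.07 in floxed controls, 12.47, 12.73 and 12.48 in Cre controls and 12.79, 12.76 and 12.75 in the cKO (log2 values). The cKO libraries lay close together and above all 6 controls, with Cre control replicate 2 just under them. Igfbp4 rose by 0.50 versus floxed controls (1.41-fold, limma adjusted p = 0.00761), and the difference from the Cre control was 0.21 (95% interval -0.05 to 0.46, limma adjusted p = 0.251). Igfbp3, the main carrier of IGFs in blood, was at 8.60, 8.93 and 8.68 in floxed controls, 8.57, 9.08 and 8.64 in Cre controls and 8.94, 9.05 and 9.01 in the cKO. Replicate 2 was the highest library of each genotype, and the cKO overlapped the Cre control. The difference of Igfbp3 was 0.26 versus floxed controls (95% interval -0.02 to 0.55, limma adjusted p = 0.126) and 0.23 versus Cre controls (adjusted p = 0.249), neither of which passed. The first of these passed without Cre control replicate 2 (limma adjusted p = 0.0318) and in the fit of the 6 libraries compared (0.0337).

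Of the ligands, Igf2 was at 13.79, 14.38 and 13.93 in floxed controls, 14.30, 14.57 and 14.16 in Cre controls and 14.66, 14.68 and 14.42 in the cKO (log2 values). The cKO lay above the floxed control and overlapped the Cre control. The share of all genes whose cKO libraries stood clear of 1 control group is not given here. Such separations, here and below, only describe the values. Igf2 rose by 0.55 versus floxed controls (1.47-fold, 95% interval 0.22 to 0.88, limma adjusted p = 0.0154), and its difference from the Cre control was 0.24 (95% interval -0.09 to 0.57, limma adjusted p = 0.300). Igf1 was at 8.56, 9.09 and 8.59 in floxed controls, 8.94, 8.90 and 8.91 in Cre controls and 9.26, 9.15 and 9.08 in the cKO. Floxed control replicate 2 reached into the cKO range, while the Cre controls lay in a narrow band below the cKO. Igf1 rose by 0.41 versus floxed controls (1.33-fold, 95% interval 0.15 to 0.68, limma adjusted p = 0.0214), and its difference from the Cre control was 0.24 (95% interval -0.02 to 0.51, limma adjusted p = 0.206). The calls of both ligands were lost without floxed control replicate 1 or 3 or cKO replicate 1 or 2, with adjusted p from 0.0536 to 0.0606 for Igf2 and from 0.0524 to 0.0841 for Igf1. Without floxed control replicate 2, Igf1 passed versus Cre controls (limma adjusted p = 0.0403).

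Neither receptor passed the test. Igf1r, the kinase that both ligands activate, was at 11.76, 11.72 and 11.75 in floxed controls, 11.59, 11.80 and 11.80 in Cre controls and 11.58, 11.67 and 11.36 in the cKO (log2 values). All 3 cKO libraries lay below the floxed control, and Cre control replicate 1 lay among them. The difference of Igf1r was -0.21 versus floxed controls (95% interval -0.38 to -0.03, limma adjusted p = 0.0629) and -0.19 versus Cre controls (95% interval -0.37 to -0.02, limma adjusted p = 0.141). The first passed in 5 of the 19 alternatives, among them the fits without cKO replicate 2 (limma adjusted p = 0.0305) and without Cre control replicate 1 (0.0289), and the second passed without Cre control replicate 1 (0.0321). Without cKO replicate 3, the lowest library, the differences were -0.12 and -0.105 (limma adjusted p = 0.206 and 0.356). Igf2r, which clears Igf2, was at 11.29, 11.32 and 11.32 in floxed controls, 10.85, 11.43 and 11.40 in Cre controls and 11.35, 11.46 and 11.36 in the cKO. Apart from Cre control replicate 1, which stood lowest by far, the libraries lay within a narrow band. Its differences were 0.08 versus floxed controls (95% interval -0.20 to 0.35, limma adjusted p = 0.654) and 0.16 versus Cre controls (95% interval -0.12 to 0.44, limma adjusted p = 0.414), and without Cre control replicate 1 the second was -0.03.

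**Figure D2:**
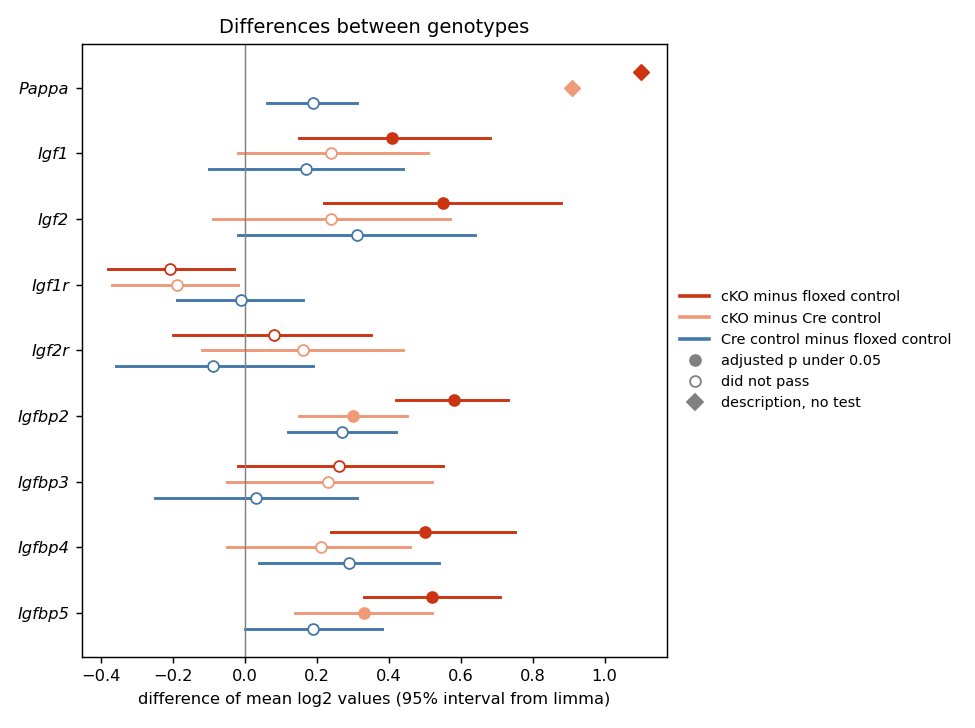
Differences of mean log2 values between genotypes (horizontal axis) for the 9 genes, with 95% intervals from limma, filled circles for an adjusted p under 0.05, open circles for differences that did not pass and diamonds for the differences of Pappa that are a description. Versus floxed controls Igf1, Igf2, Igfbp2, Igfbp4 and Igfbp5 passed, versus Cre controls Igfbp2 and Igfbp5, and 0 of the 9 between the controls.

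Versus floxed controls, 5 of the 8 partners rose in the cKO (Igf1, Igf2, Igfbp2, Igfbp4 and Igfbp5) and 0 fell, where 19.5% of all genes tested were higher and 38.3% passed in either direction. The median difference of the 8 was 0.46 on the log2 scale, beside 0.01 over all genes tested. Of 4 tested ligands, receptors and binding proteins outside the 9 genes, 0 rose and 3 fell (Insr, Insrr and Igfbpl1). Their median was -0.24, and 18.8% of all genes were lower. Versus Cre controls, 2 of the 8 rose (Igfbp2 and Igfbp5), where 4.86% of all genes were higher and 9.72% passed, with a median of 0.24 beside 0.01. Between the controls 0 of the 9 genes passed by limma, the only tool run for this comparison, while 3 (Pappa, Igfbp2 and Igfbp4) had an unadjusted p under 0.05. Of all genes 0.0570% passed, and 17.5% had an unadjusted p under 0.05. Every cKO library lay above every control library for Igfbp2, Igfbp4 and Igfbp5, 3 of the 8 partners, as for 14.7% of all genes. None of the 8 reached an adjusted p under 0.05 with a fold change over 1.5, which 2.92% and 0.563% of all genes did versus floxed and Cre controls. The comparisons share libraries and are not independent of each other. The count of 5 was 3 without floxed control replicate 1, floxed control replicate 3 or cKO replicate 1. Counted in either direction, the 2 became 3 when Cre control replicate 1 was left out, the partner gained being Igf1r, which fell. The count versus Cre controls was 1 without floxed control replicate 1 or 3 or cKO replicate 3, and 0 without Cre control replicate 3 or cKO replicate 1 or 2.

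Markers of meninges, mesenchyme and vessels were set beside the 9 genes. Of 12 markers of meninges and mesenchyme, 9, among them Col3a1, Lum and Twist1, were higher in the cKO than in the floxed control, beside 19.5% of all genes. Col1a1, Foxc2 and Foxd1 did not pass, and 0 of the 12 markers passed versus Cre controls. Their summed linear level was 0.115% to 0.211% of the library sum in floxed controls, 0.151% to 0.244% in Cre controls and 0.242% to 0.254% in the cKO, and none of the 12 was at 0. Their mean log2 value was 10.61, 11.09 and 10.35 in floxed controls, 10.82, 11.25 and 11.08 in Cre controls and 11.28, 11.29 and 11.20 in the cKO. Floxed control replicate 2 and Cre control replicate 2 were the highest controls for these markers. Both were the highest of their genotype for Igf2, Igfbp2, Igfbp3 and Igfbp4. Of the 9 genes, floxed control replicate 2 was highest of its genotype for 5 and lowest for 1 (Igf1r). Cre control replicate 2 was highest for 6 and lowest for 1 (Igf1). Of 8 endothelial markers, 4 were higher versus floxed controls and 0 passed versus Cre controls, with summed levels of 0.0221% to 0.0286%, 0.0243% to 0.0307% and 0.0288% to 0.0309% in the 3 genotypes.

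**Figure D3:**
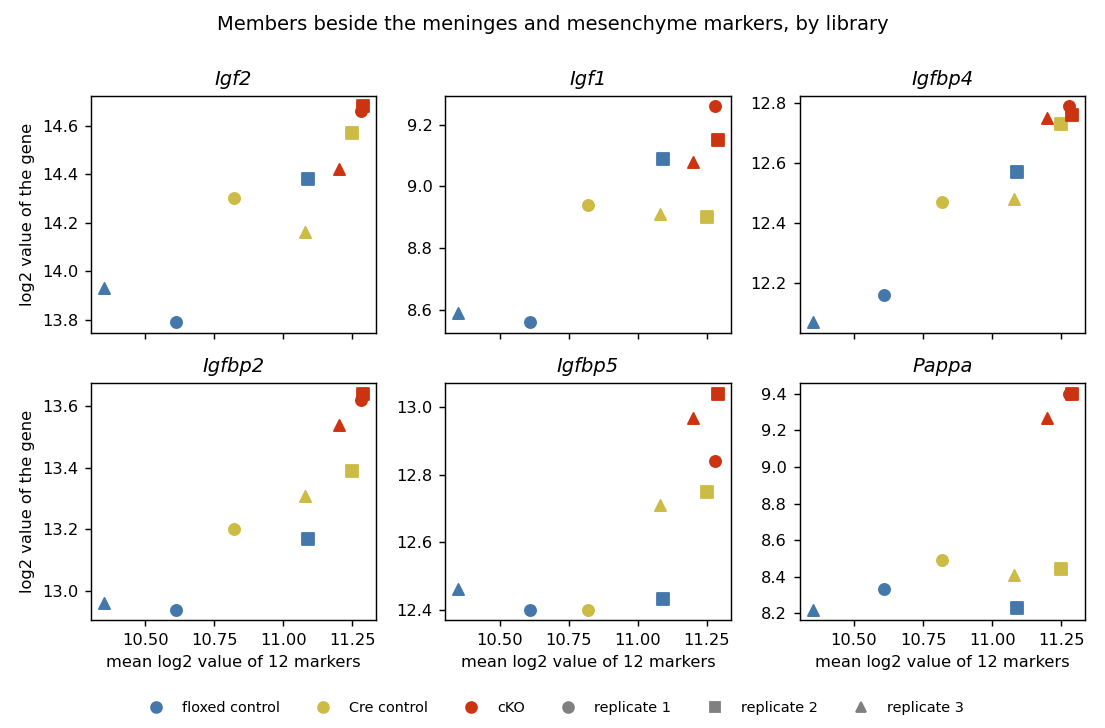
Log2 values of 6 genes (vertical axes) against the mean log2 value of 12 markers of meninges and mesenchyme (horizontal axis), with 1 point per library, colours for the genotype and marks for the replicate number. The libraries of Igf2 and Igfbp4 lie along 1 band from floxed control replicates 1 and 3 to the cKO. Pappa was chosen for its higher cKO values, so the distance of its cKO libraries from the controls follows from the choice. Its panel is not set against those of the other genes.

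With the mean of these 12 markers as a covariate, a fit chosen after seeing the data, the difference between cKO and floxed control was 0.17 for Igf2 (limma adjusted p = 0.518), 0.11 for Igf1 (0.612) and 0.12 for Igfbp4 (0.296), and none of the 3 passed. In the same fit it was 0.38 for Igfbp2 (limma adjusted p = 0.0159), which still passed, and 0.42 for Igfbp5 (0.0631), which did not. Versus Cre controls, Igfbp2 differed by 0.23 (limma adjusted p = 0.0356) and Igfbp5 by 0.29 (0.0947). The differences of Pappa were 1.12 and 0.92 in this fit, beside 1.10 and 0.91 without the markers. Since Pappa was chosen for these differences, its values here cannot be set against those of its partners, and the part of the markers was not tested. The endothelial markers as a covariate gave 0.24 for Igf2 (limma adjusted p = 0.285), 0.22 for Igf1 (0.289), 0.26 for Igfbp4 (0.147), 0.41 for Igfbp2 (0.00357) and 0.34 for Igfbp5 (0.0260) versus floxed controls. The markers themselves rose with the genotype, so that a covariate fit also takes up a part of the genotype difference.

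Of the other marker lists, the 6 choroid plexus markers (5 tested) had 1 lower gene versus floxed controls and 0 versus Cre controls, with summed levels of 0.0114% to 0.0574% in floxed controls, 0.00473% to 0.0248% in Cre controls and 0.00645% to 0.0114% in the cKO. Of the 7 erythroid markers, 5 were higher versus floxed controls and 2 versus Cre controls, with 0.544% to 0.926%, 0.649% to 0.767% and 0.836% to 1.61%. Of the 8 progenitor markers, 5 and 3 were higher versus floxed and Cre controls, and of the 8 neuron markers, 8 and 3 were lower. The 6 pericyte markers had 1 higher gene and the 7 microglia markers 0 versus floxed controls, and neither list had a gene that passed versus Cre controls. Versus floxed controls, 1 of 7 midbrain markers was higher and 2 were lower, 1 of 3 forebrain and 3 of 4 hindbrain markers tested were lower, and versus Cre controls 1 midbrain marker was higher and 1 forebrain marker lower. Over all genes tested, 19.5% were higher and 18.8% lower versus floxed controls, and 4.86% and 4.85% versus Cre controls. The part of these lists in the results was not tested.

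Beyond the 9 genes, 46 genes of the IGF pathway were listed in 5 groups, of which 45 were matched and 40 tested. The 5 under the filter were Ins1, Ins2, Igfbp1, Igfbp6 and Igfals. Compared with the floxed control 10 rose and 11 fell, with a median difference of -0.02 on the log2 scale beside 0.01 over all genes, of which 19.5% rose and 18.8% fell. Compared with the Cre control 6 rose and 2 fell, where 4.86% of all genes rose and 4.85% fell, and 0 of the 40 passed between the controls (by limma, 6 had an unadjusted p under 0.05, beside 17.5% of all genes). With the mesenchyme markers as a covariate, 6 of the 21 calls versus floxed controls passed, and with the endothelial markers 12. The count versus Cre controls, 8 in all, was 13 without Cre control replicate 1, 4 without Cre control replicate 3 or cKO replicate 2, and 3 without cKO replicate 1.

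The 3 genes for the Igf2 mRNA-binding proteins, which bind Igf2 and other messages in fetal tissue, moved together. Igf2bp1 was at 10.91, 10.90 and 10.89 in floxed controls, 11.09, 11.08 and 11.12 in Cre controls and 11.49, 11.39 and 11.21 in the cKO (log2 values). The 3 genotypes did not overlap, and all Cre controls lay above all floxed controls, as for 10.7% of all genes. Igf2bp1, Igf2bp2 and Igf2bp3 rose by 0.47, 0.44 and 0.36 versus floxed controls (limma adjusted p = 7.21e-04, 0.00110 and 0.00150) and by 0.27, 0.40 and 0.27 versus Cre controls (adjusted p = 0.0288, 0.00988 and 0.0225). Every cKO library lay above every control for all 3, as for 14.7% of all genes. The imprinted genes Plagl1, a zinc finger factor, and Grb10, an adaptor that dampens signaling from insulin and IGF receptors, rose as well, by 0.40 and 0.41 versus floxed controls (limma adjusted p = 0.00122 and 0.00248) and by 0.37 and 0.32 versus Cre controls (adjusted p = 0.00970 and 0.0305). Igf2bp2 and Plagl1 passed in all 19 alternatives in both comparisons. The calls versus Cre controls were lost without cKO replicate 1 or cKO replicate 2 for Igf2bp1, Igf2bp3 and Grb10, without Cre control replicate 3 also for Igf2bp1 and Grb10, and without Cre control replicate 2 for Igf2bp1. These 3 calls were also lost in the fit of the 6 libraries compared and with the mesenchyme markers as a covariate, and that of Grb10 with the endothelial markers. Versus floxed controls, Igf2bp3 and Grb10 did not pass with the mesenchyme markers (limma adjusted p = 0.0583 and 0.101).

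Igfbpl1, a relative of the binding proteins expressed in young neurons, went the other way from Igfbp2, Igfbp4 and Igfbp5. It was at 12.91, 12.79 and 12.85 in floxed controls, 12.72, 12.76 and 12.76 in Cre controls and 12.46, 12.44 and 12.35 in the cKO (log2 values). Every cKO library lay below every control, as for 11.5% of all genes. It fell by 0.44 versus floxed controls (limma adjusted p = 3.13e-04) and by 0.33 versus Cre controls (adjusted p = 0.00549), and passed in all 19 alternatives in both comparisons. The insulin receptor Insr and its relative Insrr fell by 0.26 and 0.22 versus floxed controls (limma adjusted p = 0.0283 and 0.0236), with differences of -0.16 and -0.20 versus Cre controls (adjusted p = 0.218 and 0.0789) that did not pass. Insr was lost without floxed control replicate 1 or 3 or cKO replicate 1 or 3, and Insrr without floxed control replicate 1 or 2 or cKO replicate 1 or 2. Both were also lost with the mesenchyme markers as a covariate, and Insrr with the endothelial markers. Igfbp7, a binding protein of vessels, differed by 0.14 and 0.05 (limma adjusted p = 0.165 and 0.698).

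None of the 4 listed proteases and inhibitors passed versus both controls, a test not made for Pappa. Its relative Pappa2, a protease of Igfbp3 and Igfbp5, was between 8.02 and 8.36 in floxed controls, 8.01 and 8.56 in Cre controls and 7.98 and 8.44 in the cKO (log2 values), with differences of -0.03 versus floxed controls (95% interval -0.38 to 0.31) and -0.06 versus Cre controls. Of the inhibitors of Pappa, Stc2 rose by 0.21 versus floxed controls (limma adjusted p = 0.0325), with 0.16 versus Cre controls (0.153), the call being lost without floxed control replicate 1 or any 1 cKO library, and Stc1 differed by -0.05 and -0.11 (adjusted p = 0.497 and 0.213). For Stc2 every cKO library lay above every control library, as for 14.7% of all genes. The call of Stc2 was also lost with either marker list as a covariate. Htra1, a serine protease that can cleave Igfbp5, was at 8.27, 8.40 and 7.97 in floxed controls, 8.04, 8.81 and 8.40 in Cre controls and 8.94, 8.78 and 9.13 in the cKO. The cKO lay above the floxed control, and Cre control replicate 2 reached into its range. Htra1 rose by 0.74 versus floxed controls (95% interval 0.34 to 1.14, limma adjusted p = 0.00985), and its difference from the Cre control was 0.53 (adjusted p = 0.0862). The first call was lost with either marker list as a covariate (highest limma adjusted p = 0.360).

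Inside the cell, the adaptor Irs2 rose by 0.29 versus floxed controls and by 0.25 versus Cre controls (limma adjusted p = 0.00805 and 0.0464), the second call being lost in 13 of the 19 alternatives, among them the fits without any 1 library other than Cre control replicate 1. The call of Irs2 versus floxed controls was lost with either marker list as a covariate (highest limma adjusted p = 0.212). Shc1 rose by 0.39 versus floxed controls (limma adjusted p = 0.00452) and differed by 0.08 from the Cre control (0.522), and the first call was lost with either marker list as a covariate (highest 0.171). Of 21 genes of the PI3K, Akt, mTOR and FoxO branch, 8 fell and 1 rose versus floxed controls, beside 18.8% and 19.5% of all genes. Among them, Pik3ca, Pik3r1, Pik3r3, Pdpk1, Tsc1 and Foxo6 fell by 0.25, 0.25, 0.29, 0.27, 0.12 and 0.42 on the log2 scale (limma adjusted p = 0.0458, 0.0139, 0.00520, 7.45e-04, 0.0438 and 9.30e-04). Those of Pdpk1, Pik3r3 and Foxo6 passed without each library in turn, and that of Pik3r1 was lost without floxed control replicate 3 or cKO replicate 1. With the mesenchyme markers as a covariate, Pik3r3 (limma adjusted p = 0.0685), Pik3r1, Pik3ca and Tsc1 did not pass. Pik3ca and Tsc1 did not pass with the endothelial markers either, while Pdpk1 and Foxo6 passed with both lists. Pik3ca and Tsc1 passed in 8 of the 19 alternatives and were lost without any 1 cKO library or floxed control replicate 1 or 3, Pik3ca also without floxed control replicate 2 and Tsc1 without Cre control replicate 2. Eif4ebp1, a translation repressor that mTOR inactivates, rose by 0.61 (limma adjusted p = 0.00214), a call lost with the mesenchyme markers as a covariate (0.0853). Versus Cre controls only Pdpk1, the kinase that activates Akt, passed among the 21, with a fall of 0.20 (limma adjusted p = 0.0138), which was lost without Cre control replicate 3 or cKO replicate 1, while 9.72% of all genes passed in that comparison. Akt1 and Akt2 differed by -0.02 and 0.07 versus floxed controls (adjusted p = 0.758 and 0.262). Tsc2 varied widely within the Cre control and the cKO, with 5.33 to 5.35 in floxed controls, 5.62 to 6.90 in Cre controls and 5.35 to 7.27 in the cKO, and did not pass.

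**Figure D4:**
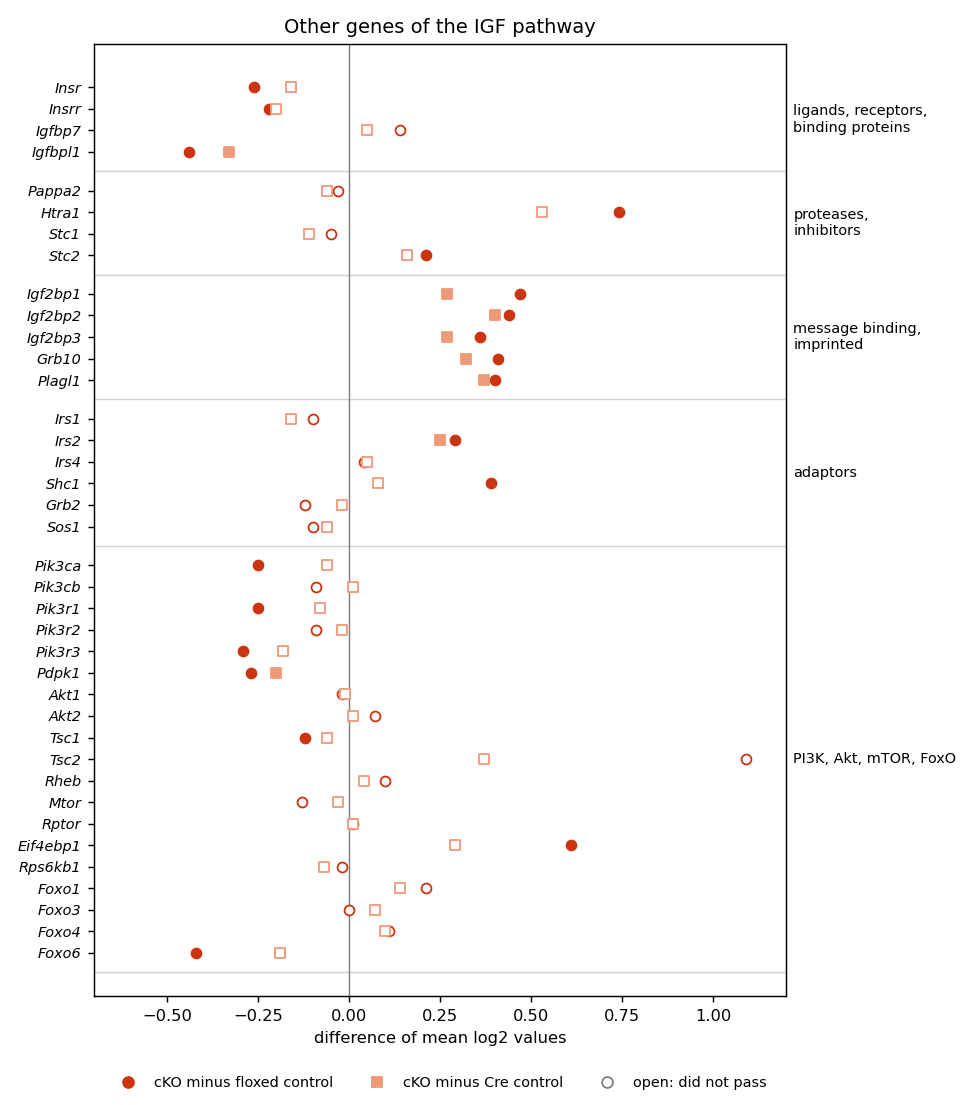
Differences of mean log2 values (horizontal axis) in the cKO versus floxed controls (circles) and the Cre control (squares) for the other genes of the IGF pathway reported here, in 5 groups, filled where the adjusted p was under 0.05. The 3 Igf2bp genes, Grb10 and Plagl1 lie to the right and filled in both comparisons, Igfbpl1 to the left, and most PI3K and Akt genes near 0 or slightly to the left, with Tsc2 (1.09) far to the right and open.

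By likeness of pattern, measured as Pearson's r with Pappa over the log2 values of the 9 libraries, the nearest of 14028 genes were Inppl1 (0.994), Mthfd1l (0.990), Pgam1 (0.989), Gapdh-ps15 (0.988) and Kat14 (0.988). These r describe a likeness that the genotype step itself gives, since the 9 points form 3 genotypes. Inppl1, which encodes the phosphoinositide phosphatase SHIP2, was at 11.03 ± 0.012 in floxed controls, 11.11 ± 0.0086 in Cre controls and 11.32 ± 0.0065 in the cKO (log2 value, SD, n = 3), a difference of 0.29 between cKO and floxed control beside 1.10 for Pappa. Pgam1 and the Gapdh pseudogene row belong to glycolysis genes by name, and reads of Gapdh-ps15 cannot be told apart from those of Gapdh. Among the 8 partners, Igfbp2 ranked highest (rank 811, r = 0.886), followed by Igfbp5 (rank 1179, r = 0.854), Igf1 (2700, 0.725), Igfbp4 (2727, 0.722), Igf2 (2989, 0.696) and Igfbp3 (4088, 0.575). Igf2r (rank 6120, r = 0.259) and Igf1r (rank 11113, r = -0.675) were last.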

How the data were processed

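Poly-A libraries of 9 mouse midbrain samples, 3 per genotype, were sequenced (NEBNext Ultra RNA, Illumina HiSeq). The authors deposited 1 table of log2 values for 27360 rows and 9 libraries, normalized between libraries. The submitters' processing notes name FastQC 0.10.1, kallisto 0.46.1, DESeq2 and the build mm10. Which step gave the log2 values is not stated, and they look like a regularized log: the median SD between libraries was 0.00370 for rows with a mean between -3 and 0, against 0.103 between 8 and 10. Read counts and depth are unknown, so no count test was run.

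Rows with a symbol and at least 1 cpm, counted on linear values (2 to the power of the value), in at least 3 libraries were kept, at 4.73 to 4.78 on the log2 scale, and 118 rows with a repeated symbol were dropped. With limma 3.58.1 (R 4.3.3), a mean per genotype was fitted over the 9 libraries (eBayes, trend on mean expression), with two-sided moderated tests, Benjamini-Hochberg adjustment over all 14029 genes and a threshold of 0.05. The fit was tested on simulated data. Alternatives changed the filter (none, or 5 cpm), the trend, the libraries in the fit, the replicate block, the scaling, the threshold, a Y-linked covariate and each library in turn, and the 2 marker covariates were chosen after seeing the data. The genes named are the 9 members, the listed pathway genes that passed (some are counted but not reported here), the 5 genes most like Pappa, Gpr161, and examples of marker lists. Others (Gli1, Igfbp7, Pappa2, Stc1, Akt1, Akt2 and Tsc2) were named after their values were seen. The members and lists, and the rule, were chosen with earlier results of these data known. Positions are from GENCODE M21 (GRCm38) and promoters from RefSeq (GRCm38.p6). H19 was not analysed here.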

Additional observations from a re-analysis of the deposited data

How the results depend on the processing

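Igfbp2 versus floxed controls and the 0 calls among the 9 genes and 40 pathway genes between the controls held under all alternatives run, apart from the higher fold limit for Igfbp2. With a fold change over 1.5 added, the partners of Pappa past the threshold went from 5 and 2 to 0 and 0, and the other pathway genes from 21 and 8 to 2 and 0, versus floxed and Cre controls. Versus Cre controls the 2 partners became 1 with no filter, eBayes without a trend, only the 6 libraries compared, quantile normalization or either marker covariate, and the 8 pathway genes became 4 with only the 6 libraries or the mesenchyme markers. Versus floxed controls the 5 partners became 1 and 2, and the 21 pathway genes 6 and 12, with the mesenchyme and the endothelial markers. Leaving out 1 library gave 3 to 6 partners and 15 to 24 pathway genes versus floxed controls, and 0 to 3 and 3 to 13 versus Cre controls. These counts take either direction, and the partner gained without Cre control replicate 1 was Igf1r, lower in the cKO, in both comparisons. The cause of these changes was not tested, apart from the higher fold limit.

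Between the controls, Igf1r turned from -0.01 to 0.014 with quantile normalization and ran from -0.051 to 0.056 over the fits that left out 1 library (0.056 without Cre control replicate 1), and Igf1 turned to -0.025 with the mesenchyme markers. Igf2r turned to -0.128 and -0.188 versus floxed controls with the mesenchyme and endothelial markers. Without Cre control replicate 1 it turned to -0.026 versus Cre controls and 0.103 between the controls, where leaving out 1 library gave -0.026 to 0.262 and -0.185 to 0.103. Igfbp3 turned to -0.055 and -0.041 versus floxed controls and to -0.174 and -0.111 between the controls with the same markers. Leaving out 1 library gave it -0.127 to 0.129 between the controls, the negative values being -0.127 without Cre control replicate 2 and -0.035 without floxed control replicate 1. None of these differences passed in either form.

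With the replicate block, 6 and 2 partners and 21 and 9 pathway genes passed versus floxed and Cre controls, and Igfbp3 was the partner gained (limma adjusted p = 0.0300 versus floxed controls). Deviations from the genotype means correlated across genes between -0.027 and 0.26 for libraries of 1 number and between -0.28 and 0.16 for others, and 7 of 9 libraries correlated best with their own number, a hint from the data and not the design, so the numbers were not taken as pairs. The depth is unknown, so the counting precision of Pappa and the other low genes cannot be given.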
